A study of Mus musculus with 4 samples.

Results

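Mediator and the TATA-binding protein (TBP) associated factors, or TAFs, were examined in LL2 cells, a mouse Lewis lung carcinoma line, after exposure to lactic acid. Members were the protein-coding genes of the deposited count table named Med or Taf followed by a number, with an optional paralogue letter, together with Cdk8, Cdk19, Ccnc and Tbp. They numbered 57 of 54532 genes, of which 33 were Mediator genes, counting Cdk8, Cdk19 and Ccnc, and 24 were TAF genes or Tbp. Cells of the lactic acid group had 20 mM lactic acid in the medium for 24 h, and control cells had PBS at the same volume for 24 h. Each group had 2 libraries of poly(A) RNA, labelled as biological replicates of an otherwise unmodified line. The labels do not say how the replicate cultures were separated, so p-values refer to the spread between these libraries. This spread was estimated for each gene with information from all tested genes. The question put to the members was whether Mediator and TAF transcripts differed between lactic acid and PBS, and whether the families differed from each other in this.

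Mediator is the large complex that carries signals from DNA-bound activators to RNA polymerase II. Its head and middle modules contact the polymerase, its tail contacts activators, the Med14 subunit runs through the complex as a backbone, and a detachable kinase module of a cyclin-dependent kinase, cyclin C, Med12 and Med13 regulates the rest. TAFs join TBP to form TFIID, which recognises core promoters and nucleates the preinitiation complex. Some TAFs are shared with the coactivator SAGA, and another set joins TBP in SL1, the promoter selectivity factor of RNA polymerase I.

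The 4 libraries held 15501006 to 17409990 assigned read counts, and scaling factors by the trimmed mean of M values (TMM) lay between 0.983 and 1.02. Levels are given as CPM, which are counts brought to a common library size by this scaling, so every change is relative to the rest of the library, and fewer cells of a type and less RNA per cell cannot be told apart. Marker lists showed a culture rich in the mesenchymal transcripts Vim and Fn1, while Cdh2 stood at only 16.5 to 19.5 CPM. The summed CPM of Vim, Fn1 and Cdh2 was 5337 to 5385 with lactic acid and 5386 to 5396 with PBS, a sum in which Vim was lower (log2 −0.28, edgeR adjusted p = 3.65e-22) and Fn1 higher (log2 0.60, edgeR adjusted p = 1.55e-33). The 5 epithelial markers summed to 153 CPM in each lactic acid library and 214 to 221 CPM in PBS, with Epcam at 0 or 1 count in a library. Of these Krt8 was lower (log2 −1.14, edgeR adjusted p = 1.93e-27), while Krt18 was not called (log2 −0.003). Leukocyte markers summed to 6.74 to 7.85 CPM with lactic acid, against 3.91 to 4.03 CPM with PBS, nearly all from Cd68, with Adgre1 and Cd3e at 0 throughout and Ptprc at 0 or 1 count. Cd68 was higher (log2 0.89, edgeR adjusted p = 0.000157). Fibroblast markers, nearly all from Pdgfra, summed to 30.7 to 30.9 CPM with lactic acid, against 20.2 to 21.7 CPM with PBS, with Lum at 0. Endothelial markers summed to 0.699 to 0.846 CPM with lactic acid, against 0.408 to 0.567 CPM with PBS. The part of these marker differences in the results on the members was not tested.

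Of the members, 54 passed the filter on low counts and were tested with edgeR's quasi-likelihood test, with Benjamini-Hochberg adjustment over all 13922 genes tested and a threshold of 0.05. Med12l and Taf7l, with 2 to 10 counts in a library, did not pass. Med10 had 0 counts in all 4 libraries. The filter asks for a minimum level in 2 libraries, so a gene expressed in only 1 group could have passed through that group alone. Lactic acid shifted much of the transcriptome, with 49.0% of tested genes called in either direction. Of the members, 28 of 54 were called (51.9%), a share close to that of all genes. By direction, 22 members were lower with lactic acid (40.7%), beside 24.3% of all genes. In the other direction 6 members were higher (11.1%), beside 24.7% of all genes. The lactic acid and PBS libraries did not overlap for 39 of the 54 members (72.2%), beside 72.3% of all genes. None of the 54 members passed a 2-fold difference, as 1029 of the 13922 tested genes did. Counts over the members were not given a test of their own.

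The Mediator and TAF families had similar median changes. Among Mediator genes 5 of 31 were higher, 12 were lower and 14 were not called, and the median log2 fold change of lactic acid over PBS was −0.10, with a range of −0.57 to 0.74. Among TAF genes and Tbp 1 of 23 was higher, 10 were lower and 12 were not called, with a median of −0.12 and a range of −0.77 to 0.36. The median over all tested genes was 0.007. The Mediator median exceeded the TAF median by 0.015 on the log2 scale. Taken for each library against the PBS mean, this difference was 0.020 and 0.008 in the lactic acid libraries, against 0.012 and −0.012 in the PBS libraries, and its pooled SD within a group was 0.013. The values of the groups overlapped, so over all tested members no separation of the families beyond the spread of the libraries was seen. Leaving out 9 tested members that share much of their exon sequence with another gene, or have a near-identical copy, gave medians of −0.17 for 27 Mediator genes and −0.24 for 18 TAF genes. The Mediator median then exceeded the TAF median by 0.0668. The spread of this difference between libraries was not computed for that smaller set, so it was not judged there.

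**Figure D1:**
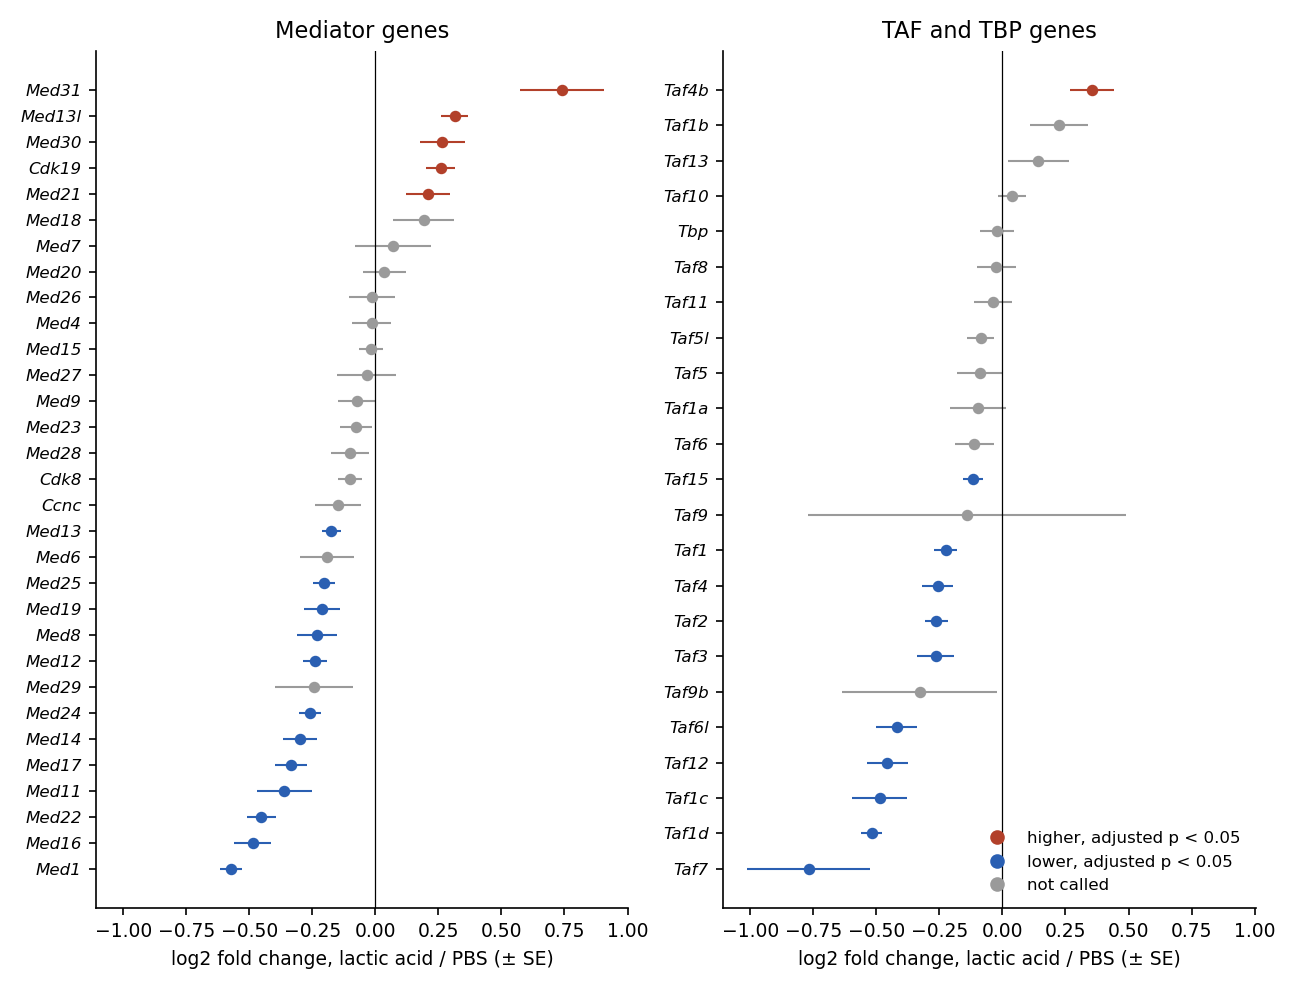
Log2 fold change of lactic acid over PBS (horizontal axis) for the 31 Mediator genes (left) and 23 TAF genes with Tbp (right) that were tested, with bars for the standard error of the fit over 2 libraries a group. Red points were higher and blue points lower at an adjusted p below 0.05, and grey points were not called; Med31, Med13l, Med30, Cdk19 and Med21 are the red Mediator points and Taf4b the red TAF point.

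Promoter sequence was available for 49 of the 57 members in the RefSeq table for mouse build GRCm38.p6, and not for Cdk19, Med8, Med23, Med24, Med30, Taf2, Taf4b and Taf7. Shown are the 150 bases directly before the annotated start, 5′ to 3′ on the gene's strand, for 3 pairs. Med1 and Med31 had the largest change in each direction among Mediator genes, Med13 and Med13l are paralogues that changed in opposite directions, and Med17 and Taf1d are neighbours on chromosome 9 that were both lower. Capitals mark matches on either strand to the motifs searched, which were TATAAA, the ETS core CCGGAAG, the NRF1 core GCGCATG, the GC box GGGCGG, the E-box CACGTG, the cyclic AMP response element TGACGTCA, the CCAAT box and the YY1 core AAGATGGC, of which the ETS and YY1 letters can overlap.
Med1, chr11:98192907-98193056, minus strand: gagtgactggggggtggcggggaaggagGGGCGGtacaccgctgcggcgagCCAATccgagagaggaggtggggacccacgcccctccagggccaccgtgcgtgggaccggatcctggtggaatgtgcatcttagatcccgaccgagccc
Med31, chr11:72215593-72215742, minus strand: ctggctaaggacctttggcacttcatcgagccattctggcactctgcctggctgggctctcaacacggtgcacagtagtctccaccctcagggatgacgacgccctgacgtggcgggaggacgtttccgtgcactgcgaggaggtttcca
Med13l, chr5:118560569-118560718, plus strand: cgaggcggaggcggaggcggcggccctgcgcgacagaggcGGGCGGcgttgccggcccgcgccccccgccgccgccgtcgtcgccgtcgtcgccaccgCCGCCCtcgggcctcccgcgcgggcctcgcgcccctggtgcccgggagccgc
Med13, chr11:86357597-86357746, minus strand: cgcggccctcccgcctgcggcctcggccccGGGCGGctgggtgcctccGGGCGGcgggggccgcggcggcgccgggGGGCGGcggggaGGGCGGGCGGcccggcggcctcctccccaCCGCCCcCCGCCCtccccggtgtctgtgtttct
Med17, chr9:15279907-15280056, minus strand: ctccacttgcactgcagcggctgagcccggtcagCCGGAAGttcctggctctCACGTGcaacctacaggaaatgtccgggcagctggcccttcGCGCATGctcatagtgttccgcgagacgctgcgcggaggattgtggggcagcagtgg
Taf1d, chr9:15306064-15306213, plus strand: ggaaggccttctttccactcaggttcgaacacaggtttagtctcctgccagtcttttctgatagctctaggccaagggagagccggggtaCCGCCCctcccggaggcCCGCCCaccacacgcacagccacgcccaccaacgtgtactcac
The Med13l and Med13 windows carried only GC boxes, whereas Med17 carried an ETS core, an E-box and an NRF1 core, and Taf1d only GC boxes. The window printed for Med31 held none of the letters searched. For Med1 the RefSeq start lies 387 bases downstream of the deposited gene start, so the printed window lies within the deposited gene.

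Over the 300-base windows of the RefSeq table, from 250 bases before to 50 after the start, the ETS core stood in 16 of the 49 member promoters (32.7%), beside 17.5% of the 12489 promoters of tested genes and 8.86% of all 32851 promoters. The GC box stood in 71.4% of member promoters, 62.5% of those of tested genes and 35.7% of all. The E-box stood in 18.4%, 9.85% and 7.15% of these sets, and TATAAA in 12.2%, 7.03% and 13.6%. The NRF1 core stood in 12.2%, 7.01% and 3.91%, and the YY1 core in 10.2%, 4.47% and 2.75%. The CCAAT box, at 36.7%, 38.1% and 37.4%, and the cyclic AMP response element, at 2.04%, 3.13% and 1.79%, were no more frequent in member promoters than in those of tested genes. By family, the ETS core stood in 7 of 28 Mediator promoters and 9 of 21 TAF or Tbp promoters. By direction, it stood in 0 of 3 promoters of members that were higher, 7 of 18 of those that were lower and 9 of 25 of those not called. The 49 member promoters take in those of 3 members that were not tested, and 1 promoter was taken for each member. The wider sets were not reduced to 1 promoter for each gene, so the shares are not fully alike. These are matches of letters, given as a description with no test.

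In the Mediator head, which holds the polymerase-binding core around Med17, 4 of 7 genes were lower and none of the 7 was higher. The counts of this and the following subunit groups stand beside 24.3% lower and 24.7% higher among all tested genes, and with 1 to 12 tested genes in a group they describe those genes and no more. Med17, the head scaffold (ENSMUSG00000031935), had 47.3 and 49.8 CPM with lactic acid, against 63.4 and 59.1 CPM with PBS. Both lactic acid libraries lay below both PBS libraries, and Med17 was lower at 0.794 times the PBS level (log2 −0.33, SE 0.06, edgeR adjusted p = 1.2e-05). Med22, a small head subunit paired with Med11, had 56.7 and 54.5 CPM with lactic acid, against 77.9 and 74.3 CPM with PBS. The Med22 groups did not overlap either, and its level was 0.731 times that in PBS (log2 −0.45, SE 0.06, edgeR adjusted p = 1.72e-09). Med11 had 15.7 and 15.9 CPM with lactic acid, against 21.2 and 19.4 CPM with PBS. It was lower (log2 −0.36, SE 0.11, edgeR adjusted p = 0.00456), but not without PBS replicate 1 (log2 −0.30, edgeR adjusted p = 0.0661). Med8, which joins the head to Med18 and Med20, was lower by the smallest amount (log2 −0.23, SE 0.08, edgeR adjusted p = 0.0137). Its call was lost without lactic acid replicate 2 (edgeR adjusted p = 0.184) and without PBS replicate 1 (edgeR adjusted p = 0.124). Med6, Med18 and Med20 were not called, with log2 differences of −0.19, 0.19 and 0.04. Med6 was called without PBS replicate 2 (log2 −0.34, edgeR adjusted p = 0.0194).

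Of the subunits at the border of head and tail, 1 of 4 was higher. Med30, a metazoan subunit and the most abundant Mediator transcript per length, had 30.7 and 30.4 CPM with lactic acid, against 27.8 and 23.1 CPM with PBS. Its groups did not overlap, but the PBS libraries stood further apart than the lactic acid ones. It was higher at 1.20 times the PBS level (log2 0.27, SE 0.09, edgeR adjusted p = 0.0105). Without PBS replicate 2 its difference was 0.13 and was not called (edgeR adjusted p = 0.351), and without PBS replicate 1 it was 0.40. Med27, Med28 and Med29 had log2 differences of −0.03, −0.10 and −0.24 and were not called. Med29 was called without PBS replicate 1 (log2 −0.43, edgeR adjusted p = 0.0398).

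The middle module held the Mediator genes with the largest change in each direction, with 2 of its 8 tested genes higher and 2 lower, near the shares of all tested genes. Med1, the subunit that nuclear receptors bind (ENSMUSG00000018160, chr11:98152154-98193293, minus strand, GRCm38), had 97.2 and 92.8 CPM with lactic acid, against 141 and 142 CPM with PBS. Both lactic acid libraries lay well below both PBS libraries. Med1 was lower at 0.673 times the PBS level (log2 −0.57, SE 0.04, edgeR adjusted p = 1.86e-17). Its log2 change stayed between −0.61 and −0.54 over 9 alternatives. These varied the scaling, filter, test or replicate block, or left out a library. Med31, among the most conserved subunits (ENSMUSG00000020801, chr11:72211724-72215592, minus strand), had 8.96 and 11.2 CPM with lactic acid, against 6.11 and 5.95 CPM with PBS. These values rest on 141 and 185 counts with lactic acid and 97 and 102 counts with PBS. Med31 was higher at 1.67 times the PBS level (log2 0.74, SE 0.17, edgeR adjusted p = 0.000162), with no overlap between groups. Only 73.7% of the Med31 exon bases are its own, the rest being shared with 4930563E22Rik on the opposite strand, which had 11 and 8 counts with lactic acid and 6 and 2 counts with PBS.

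Med21, which pairs with Med7 at the hinge of the middle module, had 29.4 and 29.7 CPM with lactic acid, against 27.0 and 24.2 CPM with PBS. The groups did not overlap, and Med21 was higher (log2 0.21, SE 0.09, edgeR adjusted p = 0.0408). The Med21 call was lost without lactic acid replicate 1 (edgeR adjusted p = 0.108), without lactic acid replicate 2 (edgeR adjusted p = 0.149) and without PBS replicate 2 (log2 0.12, edgeR adjusted p = 0.381). Its exons share 197 bases with Tm7sf3 on the opposite strand, which had 1116 and 1206 counts with lactic acid and 858 and 899 counts with PBS. A stretch of 446 bases matches Rps26-ps1 at 98.4% identity, a copy with 341 counts over the 4 libraries. Med19, which contacts the repressor REST, had 38.3 and 37.6 CPM with lactic acid, against 42.7 and 45.1 CPM with PBS. Both lactic acid values were below both PBS values, and Med19 was lower (log2 −0.21, SE 0.07, edgeR adjusted p = 0.0125), but not without lactic acid replicate 2 (edgeR adjusted p = 0.0897) or PBS replicate 2 (edgeR adjusted p = 0.0965). Its exons share 246 bases with Zdhhc5 on the opposite strand, which had 1943 and 2079 counts with lactic acid and 2683 and 2877 counts with PBS. Med9 had 37.7 and 36.2 CPM with lactic acid, against 39.8 and 38.0 CPM with PBS, and was not called (log2 −0.07, SE 0.08). Med4, Med7 and Med26, of which Med26 recruits elongation factors, had log2 differences of −0.01, 0.07 and −0.01 and were not called. Med10 was listed at 0 counts in each library, and 92.8% of its exon bases are shared with Gm26819 on the opposite strand, which had 2 and 11 counts with lactic acid and 10 and 5 counts with PBS. The labels do not state whether counting used strand or how reads on shared bases were treated, so reads of a gene and of its opposite-strand partner cannot be told apart here.

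The backbone gene Med14 had 49.7 and 45.7 CPM with lactic acid, against 54.9 and 62.3 CPM with PBS. Its groups did not overlap, and it was lower at 0.813 times the PBS level (log2 −0.30, SE 0.07, edgeR adjusted p = 0.000146). In the tail, 3 of 5 genes were lower and none of the 5 was higher. Med16 had 35.0 and 33.1 CPM with lactic acid, against 48.9 and 46.5 CPM with PBS, which put it at 0.714 times the PBS level (log2 −0.49, SE 0.07, edgeR adjusted p = 9.35e-08). Med24 and Med25, of which Med25 binds activators such as the ETS family member ETV4, were lower by log2 changes of −0.26 and −0.20 (edgeR adjusted p = 1.69e-06 and 0.000107). Med15, the target of the sterol regulator SREBP, and Med23, the target of the growth factor responsive activator ELK1, were not called, with log2 differences of −0.02 and −0.08.

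The kinase module was mixed, with 2 of its 6 tested genes higher and 2 lower. Cdk19 had 68.9 and 69.4 CPM with lactic acid, against 59.2 and 56.5 CPM with PBS, and was higher (log2 0.26, SE 0.06, edgeR adjusted p = 0.000181). Its partner paralogue Cdk8 had 87.2 and 88.1 CPM with lactic acid, against 94.1 and 94.0 CPM with PBS, and was not called (log2 −0.10, SE 0.05, edgeR adjusted p = 0.0708). Both encode the kinase of the module, and for both the groups did not overlap, in opposite directions. Med13l, which like Med13 ties the module to the core complex, had 93.1 and 94.9 CPM with lactic acid, against 70.1 and 80.8 CPM with PBS, and was higher at 1.24 times the PBS level (log2 0.31, SE 0.05, edgeR adjusted p = 2.65e-06). Med13 had 142 and 145 CPM with lactic acid, against 160 and 163 CPM with PBS, and was lower (log2 −0.17, SE 0.04, edgeR adjusted p = 0.000172). Its exons share 800 bases with Brip1os on the opposite strand, which had 1715 and 1714 counts with lactic acid and 1755 and 1901 counts with PBS. Med12, which activates the kinase, had 84.6 and 83.2 CPM with lactic acid, against 99.5 and 98.9 CPM with PBS, and was lower (log2 −0.24, SE 0.05, edgeR adjusted p = 2.13e-05). Ccnc, the cyclin of the module, had 24.5 and 25.8 CPM with lactic acid, against 25.7 and 30.0 CPM with PBS, so the groups overlapped. It was not called (log2 −0.15, SE 0.09, edgeR adjusted p = 0.176), but was without PBS replicate 1 (log2 −0.26, edgeR adjusted p = 0.0467). Med12l had 2 and 5 counts with lactic acid, against 4 and 6 counts with PBS, too few to compare.

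Within TFIID, 1 of the 12 tested genes found in TFIID and not in SAGA was higher, 5 were lower and 6 were not called. Tbp itself, the DNA-binding subunit (ENSMUSG00000014767, chr17:15499888-15528379, plus strand), had 52.2 and 49.6 CPM with lactic acid, against 55.1 and 48.3 CPM with PBS. The lactic acid libraries lay between the PBS libraries, and Tbp was not called (log2 −0.02, SE 0.07, edgeR adjusted p = 0.822). Taf1, the scaffold and largest subunit, was lower (log2 −0.23, SE 0.05, edgeR adjusted p = 3.63e-05). Taf2, which contacts the initiator element, was lower by a similar amount (log2 −0.26, SE 0.05, edgeR adjusted p = 3.82e-06). Taf3, whose PHD finger reads methylated histone tails, had 36.0 and 35.0 CPM with lactic acid, against 42.5 and 42.7 CPM with PBS, and was lower (log2 −0.26, SE 0.07, edgeR adjusted p = 0.00223). Taf7, which binds Taf1 and restrains its acetyltransferase activity, had 2.73 and 2.90 CPM with lactic acid, against 4.22 and 5.37 CPM with PBS. It had the largest decrease of the members, at 0.587 times the PBS level, but rested on 43 and 48 counts with lactic acid and 67 and 92 counts with PBS (log2 −0.77, SE 0.24, edgeR adjusted p = 0.00648). The Taf7 call was lost without PBS replicate 2 (log2 −0.59, edgeR adjusted p = 0.118). Taf7l had 6 and 2 counts with lactic acid, against 9 and 10 counts with PBS, too few to be tested.

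Taf4 and its paralogue Taf4b, which take the same place in TFIID as the histone fold partner of Taf12, were called in opposite directions. Taf4b, known for its role in germ cells, had 30.9 and 29.6 CPM with lactic acid, against 23.0 and 24.3 CPM with PBS. The groups did not overlap, and Taf4b was the only TAF called higher (log2 0.36, SE 0.09, edgeR adjusted p = 0.00054). Over the same 9 alternatives, some of which left out a library, its log2 change stayed between 0.31 and 0.39. Taf4 had 58.0 and 57.9 CPM with lactic acid, against 64.6 and 73.6 CPM with PBS, with the wider spread in PBS. It was lower (log2 −0.26, SE 0.06, edgeR adjusted p = 0.000355), but not without PBS replicate 2 (log2 −0.17, edgeR adjusted p = 0.0535). Taf5, a WD40 subunit of the TFIID core, had 25.9 and 25.1 CPM with lactic acid, against 27.0 and 27.3 CPM with PBS, and was not called (log2 −0.09, SE 0.09). Taf6, the histone fold partner of Taf9, had 33.4 and 34.3 CPM with lactic acid, against 35.9 and 37.2 CPM with PBS, and was not called (log2 −0.11, SE 0.08). For Taf5 and for Taf6 both lactic acid values were below both PBS values, although neither gene was called. Taf8, which completes the TFIID core with Taf10, and the histone fold pair Taf11 and Taf13 were not called, with log2 differences of −0.02, −0.04 and 0.14.

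Among the subunits shared by TFIID and SAGA, 1 of 4 was lower. Taf12, the histone fold partner of Taf4 and Taf4b, had 30.4 and 26.9 CPM with lactic acid, against 39.1 and 39.4 CPM with PBS. Both lactic acid libraries were below both PBS libraries, and Taf12 was lower at 0.729 times the PBS level (log2 −0.46, SE 0.08, edgeR adjusted p = 2.61e-06). Taf10, a histone fold subunit, had 74.2 and 73.2 CPM with lactic acid, against 75.5 and 68.3 CPM with PBS, and was not called (log2 0.04, SE 0.06). Only 54.1% of its exon bases are its own, with most of the rest shared with Ilk on the opposite strand. Taf9 had 5 and 11 counts with lactic acid, against 10 and 8 counts with PBS, and shares 73.8% of its exon bases with Ak6 on the same strand, which had 266 and 296 counts with lactic acid and 258 and 326 counts with PBS. Taf9b had 2.61 and 1.87 CPM with lactic acid, against 2.14 and 3.44 CPM with PBS, overlapping groups that gave no call (log2 −0.33, SE 0.31). Of the TAF-like subunits found only in SAGA, Taf6l had 29.0 and 30.2 CPM with lactic acid, against 36.9 and 42.3 CPM with PBS, and was lower at 0.748 times the PBS level (log2 −0.42, SE 0.08, edgeR adjusted p = 1.29e-05). Taf5l had 79.9 and 78.2 CPM with lactic acid, against 87.5 and 80.6 CPM with PBS, and was not called (log2 −0.09, SE 0.05, edgeR adjusted p = 0.168), although it was without PBS replicate 2 (log2 −0.15, edgeR adjusted p = 0.0344).

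Of the 4 SL1 subunits, which place TBP at ribosomal RNA gene promoters, 2 were lower. Taf1d (ENSMUSG00000031939, chr9:15306214-15316991, plus strand) had 109 and 105 CPM with lactic acid, against 151 and 156 CPM with PBS. The gap between the groups was far wider than the gap within either, and Taf1d was lower at 0.699 times the PBS level (log2 −0.52, SE 0.04, edgeR adjusted p = 2.02e-16). Several small RNA genes lie within the Taf1d exons, and 86.4% of its exon bases are its own. Taf1c had 14.3 and 16.1 CPM with lactic acid, against 21.4 and 21.2 CPM with PBS, and was lower (log2 −0.49, SE 0.11, edgeR adjusted p = 0.000152). Taf1a and Taf1b were not called, with log2 differences of −0.10 and 0.22 (edgeR adjusted p = 0.491 and 0.101). Taf15, an RNA-binding protein of the FET family that associates with TFIID, had 152 and 145 CPM with lactic acid, against 159 and 163 CPM with PBS. It was lower by a small amount (log2 −0.12, SE 0.04, edgeR adjusted p = 0.0113), but not without lactic acid replicate 2 (edgeR adjusted p = 0.181) or PBS replicate 2 (edgeR adjusted p = 0.0739).

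**Figure D2:**
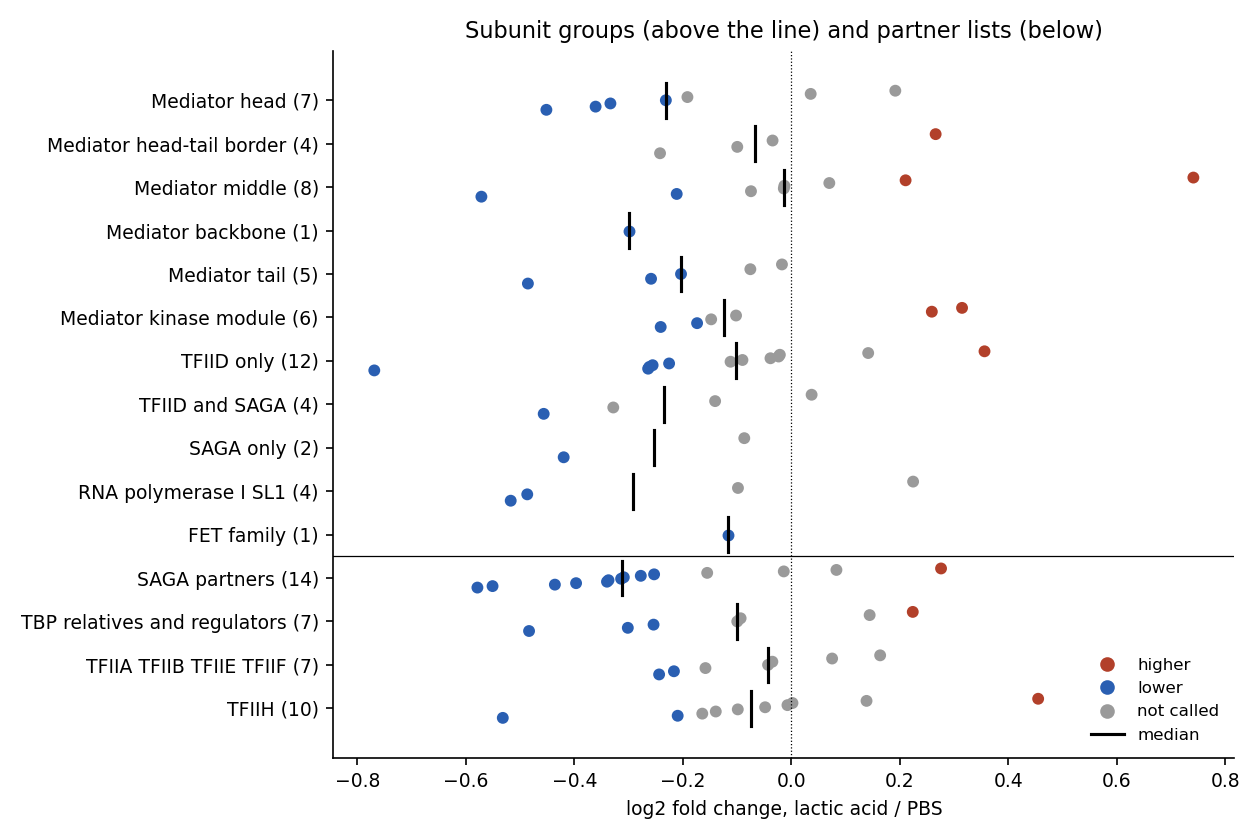
Log2 fold change of lactic acid over PBS (horizontal axis) by subunit group and, below the line, by list of other initiation genes, with the number of tested genes in brackets, a point for each gene and a black bar for the median of its row. Red and blue points were called higher and lower by edgeR. All 5 tail genes and 5 of the 7 head genes lie left of zero, as do 6866 of the 13922 tested genes. Of the 5 tail genes 2 were not called, with Med15 at −0.02.

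Among tested genes the family medians were alike per transcript length, and a few TAF genes stood far apart from the rest. The filter on low counts left out Med12l (mean 0.0201 FPKM), Med10 (0 FPKM) and Taf7l (0.183 FPKM). Med12l and Med10 lay below every TAF gene, so over all members the Mediator genes reached the lower levels. The deposited FPKM values, averaged over all 4 libraries, ran from 3.27 to 23.5 for the 31 tested Mediator genes, with a median of 9.20. For the 23 tested TAF genes and Tbp they ran from 0.244 to 52.7, with a median of 7.54. Taf15 led with 51.6 and 49.2 FPKM with lactic acid and 54.4 and 55.8 FPKM with PBS. Taf5l followed with 22.2 and 21.7 FPKM with lactic acid and 24.5 and 22.6 FPKM with PBS, and Taf10 with 16.0 and 15.8 FPKM with lactic acid and 16.5 and 14.9 FPKM with PBS. The leading Mediator gene, Med30, had 25.7 and 25.4 FPKM with lactic acid and 23.4 and 19.5 FPKM with PBS. Med19 had 18.4 and 18.1 FPKM with lactic acid and 20.7 and 21.9 FPKM with PBS, and Med9 had 19.4 and 18.7 FPKM with lactic acid and 20.7 and 19.8 FPKM with PBS. Taf7, Taf9 and Taf9b stood at the low end of the FPKM scale. Taf9 shares 73.8% of its exon bases with Ak6 on the same strand, so its FPKM may not reflect its transcript level. Tbp, with 3.72 ± 0.131 FPKM with lactic acid and 3.81 ± 0.353 FPKM with PBS (SD, n = 2 each), lay in the lower part of its family. Pdcd2 on the opposite strand covers 19.0% of the Tbp exon bases and was listed at 0 counts in each library. FPKM by gene depends on the annotated length, which for Tbp is that of a long gene model.

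**Figure D3:**
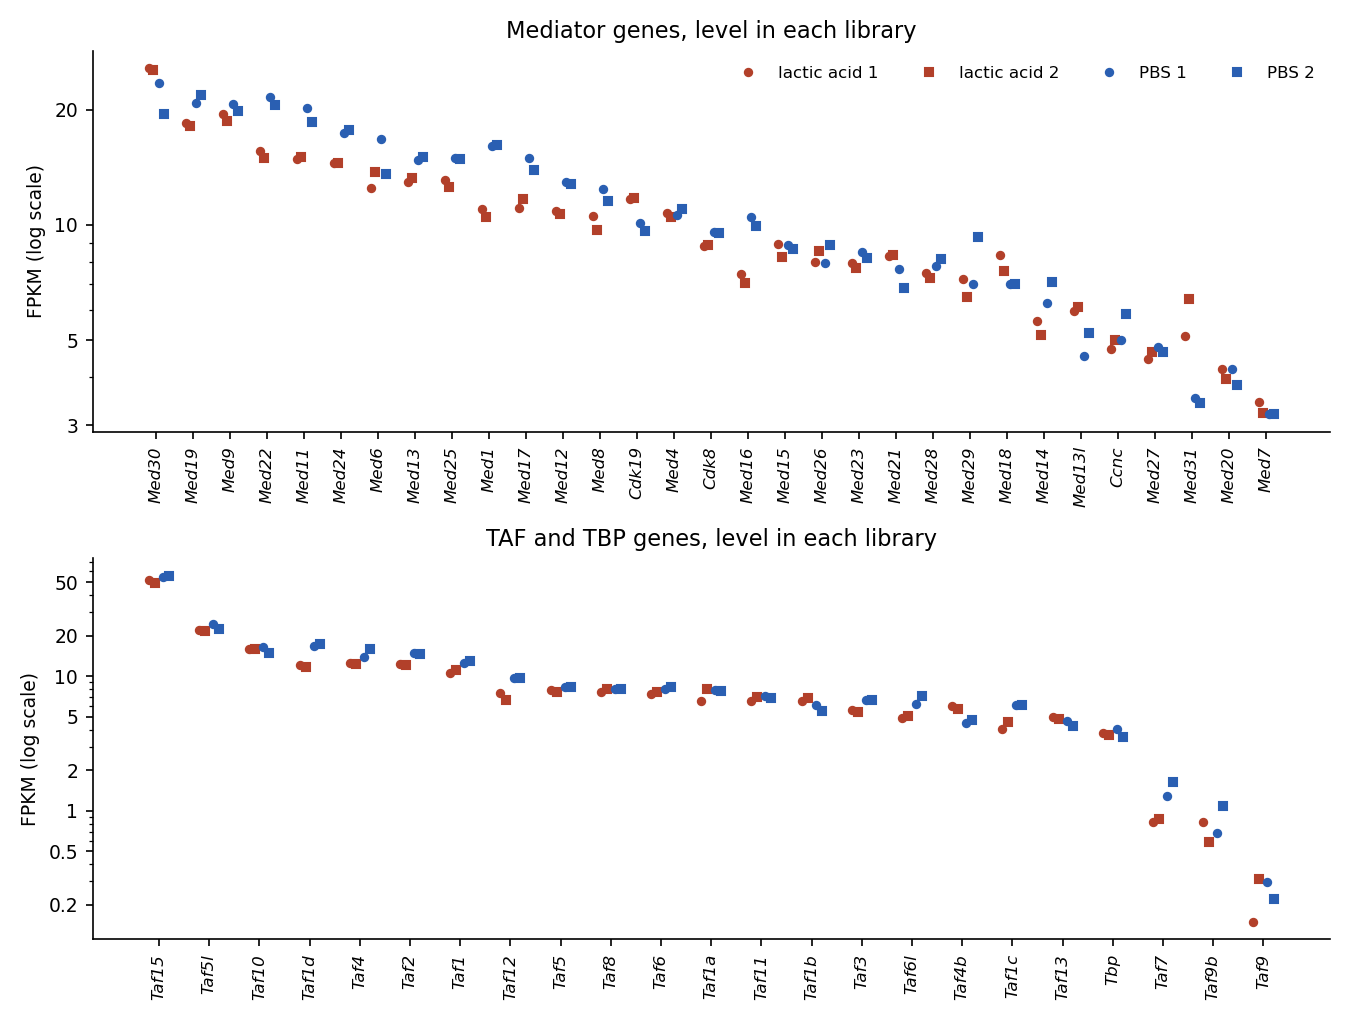
FPKM (log axis) of each tested Mediator gene (top) and each tested TAF gene and Tbp (bottom), ordered by mean level, with 1 point for each of the 2 lactic acid libraries (red) and 2 PBS libraries (blue). The tested Mediator genes span a narrower range than the tested TAF genes, from a mean of 3.27 to 23.5 FPKM. Med12l and Med10, which were not tested and are not shown, lay below every TAF gene. Taf7, Taf9b and Taf9 fall well below the other TAF genes, and Taf9 shares 73.8% of its exon bases with Ak6.

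The ratio of paralogues within a library does not depend on library scaling, and in 4 of the 5 pairs with enough counts it did not overlap between lactic acid and PBS. As single genes, 72.3% of all those tested did not overlap either. The share for ratios of 2 genes was not computed, so the count of pairs could not be set against a like share. The Cdk19 to Cdk8 ratio of FPKM was 1.33 and 1.33 with lactic acid, against 1.06 and 1.01 with PBS. For Med13l to Med13 it was 0.462 and 0.461 with lactic acid, against 0.308 and 0.348 with PBS. For Taf4b to Taf4 it was 0.479 and 0.459 with lactic acid, against 0.319 and 0.296 with PBS. In these 3 pairs the lactic acid ratios were above every PBS ratio, and the ratio was 1.28, 1.41 and 1.52 times that in PBS. Taf6l to Taf6 lay the other way, with ratios of 0.661 and 0.669 with lactic acid, against 0.781 and 0.863 with PBS, or 0.810 times the PBS ratio. Only for Taf5l to Taf5 among the 5 pairs did the ratios overlap, at 2.81 and 2.85 with lactic acid, against 2.96 and 2.69 with PBS (two-sided exact permutation p = 1). For each of the 4 pairs without overlap the two-sided exact permutation p was 0.333, which is the smallest that 2 libraries against 2 can give, so this test cannot pass 0.05 for a single ratio. Taf6 shares 26.5% of its exon bases with Ap4m1 on the opposite strand, which had 241 and 227 counts with lactic acid and 342 and 372 counts with PBS. Taf5l, Taf9 and Taf13 each match a near-identical copy elsewhere, Gm13316 with 0 counts, Gm12372 with 4 counts and Gm11189 with 17 counts over the 4 libraries. The ratios of Med12l to Med12, Taf7l to Taf7 and Taf9b to Taf9 rest on as few as 2 to 5 counts in a library and were not compared.

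**Figure D4:**
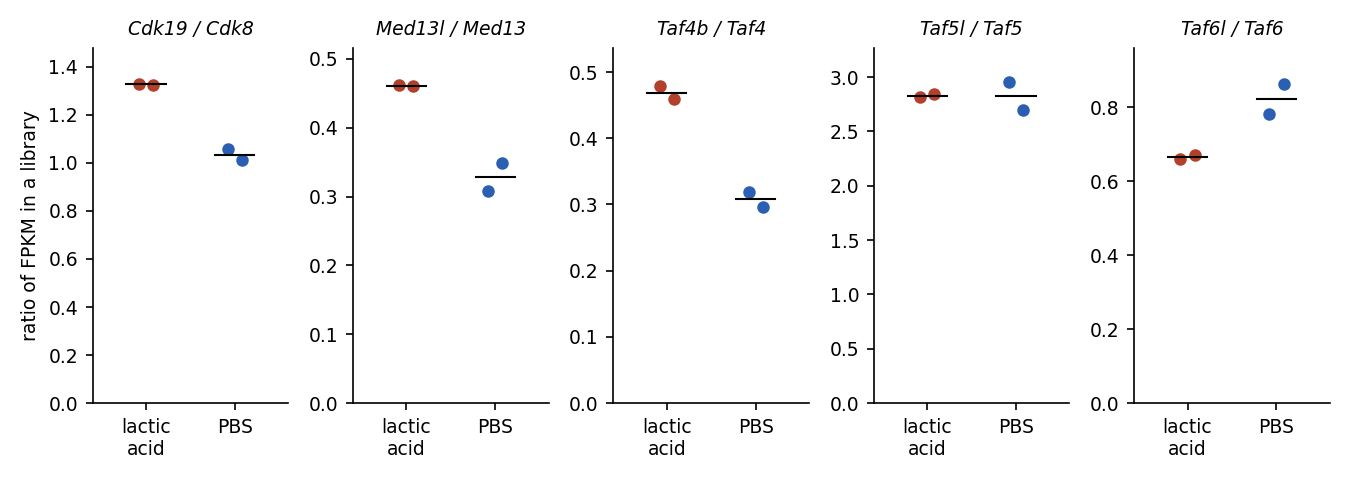
Ratio of FPKM between paralogues within each library (vertical axis, from 0) for 5 pairs, with 2 lactic acid libraries (red, left) and 2 PBS libraries (blue, right) in each panel and black bars for the mean. The groups are apart for every pair but Taf5l to Taf5, with Cdk19 to Cdk8 at 1.33 in both lactic acid libraries and 1.06 and 1.01 in PBS.

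Other genes of the initiation machinery, from lists set by membership of the complexes, gave 3 higher and 17 lower of 38 tested (7.89% and 44.7%), beside 24.7% and 24.3% of all tested genes, with a median log2 fold change of −0.16. SAGA partners, the subunits of that complex that are not TAFs, gave 1 higher and 10 lower of 14 (7.14% and 71.4%), with a median of −0.31. Trrap, the scaffold that activators bind, averaged 265 ± 4.79 CPM with lactic acid, against 349 ± 10.4 CPM with PBS (SD, n = 2 each). It was lower (log2 −0.40, SE 0.03, edgeR adjusted p = 1.24e-15), as were Eny2 (log2 −0.55) and Atxn7l3 (log2 −0.34) of the deubiquitinase module and the acetyltransferase gene Kat2a (log2 −0.31). Usp22, the deubiquitinase itself and the single SAGA partner called higher, had a log2 change of 0.28 and was named after its value was seen. Among 7 TBP relatives and regulators, 1 was higher and 3 were lower (14.3% and 42.9%). Btaf1, the ATPase that strips TBP from DNA, was lower (log2 −0.48, SE 0.05, edgeR adjusted p = 2.22e-12). The subunits of the negative cofactor NC2 moved apart, with Drap1 higher (log2 0.22) and Dr1 lower (log2 −0.30), and Brf1, the TBP partner at RNA polymerase III genes, was lower (log2 −0.25).

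In the list of TFIIA, TFIIB, TFIIE and TFIIF, 2 of 7 genes were lower, namely Gtf2f1 (log2 −0.22) and Gtf2b (log2 −0.24), and none of the 7 was higher. Gtf2a1 and Gtf2f2 were not called, with log2 differences of 0.16 and −0.16 (edgeR adjusted p = 0.0506 and 0.104). In TFIIH, the helicase and kinase complex, 1 of 10 genes was higher and 2 were lower, both below the shares of all tested genes. Gtf2h1 averaged 72.7 ± 1.97 CPM with lactic acid, against 105 ± 1.93 CPM with PBS (SD, n = 2 each), and was lower (log2 −0.53, SE 0.05, edgeR adjusted p = 3.82e-14). Mnat1, the assembly factor of the TFIIH kinase, averaged 62.5 ± 1.39 CPM with lactic acid, against 45.6 ± 0.572 CPM with PBS, and was higher (log2 0.45, SE 0.06, edgeR adjusted p = 1.38e-08). Gtf2h3 was lower by 0.21 on the log2 scale (edgeR adjusted p = 0.0386), and Gtf2h4, with a log2 difference of −0.16, was not called (edgeR adjusted p = 0.0700).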

How the data were processed

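RNA of mouse LL2 cells was sequenced as paired 150-base reads from poly(A)-selected libraries made with a kit for which no strand setting is given, per the labels' protocols. The submitters' processing notes name CASAVA, HISAT2 2.0.5, StringTie 1.3.3b, featureCounts 1.5.0-p3 and DESeq2 1.16.1 and the builds GRCm38.p6 and mm10, with no role or order. The deposited counts are whole reads per gene, and the FPKM values deposited by the authors equal those counts divided by the deposited gene length and by 1 constant per library. These constants were 1.02 times the count total in both lactic acid libraries and 0.982 and 0.985 times the count total in the PBS libraries. The control columns are headed NS, and each was matched to its PBS sample through the library name in the labels. No sample column was left unused.

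Counts were tested with edgeR 4.0.16 in R 4.3.3 (filterByExpr with a minimum count of 10 and a total of 15, TMM scaling, robust quasi-likelihood fit, 2 residual degrees of freedom), with Benjamini-Hochberg adjustment over 13922 of 54532 genes and a threshold of 0.05. Each SE was taken from the fit as the absolute log2 change over the root of its F value. The spread between libraries was estimated for each gene with information from all tested genes. The p-values therefore do not rest on 2 residual degrees of freedom alone. A count of 3 in a library equals 0.175 to 0.191 CPM. The SEs take in the estimated spread between libraries as well as counting error. Replicates differed by more than sampling noise, with chi-square values per degree of freedom of 2.83 for lactic acid and 2.35 for PBS. Exon overlaps come from GENCODE M21, near-identical copies (at least 98% over 300 bases) from blastn 2.17.0 against its transcripts, and promoter sequence from RefSeq. Alternatives were other scaling, other filters, DESeq2 1.42.0, the replicate number as a block and leaving out each library. Members and lists were chosen with earlier results of these data known. A marker of the leukocyte list is not reported here. Per-library values were given for the 6 called members of each family with the largest change in each direction, paralogue pairs, the 3 most abundant members of each family, Tbp, Ccnc and Med14, and of each other list the 4 genes with the smallest p were named.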

Additional observations from a re-analysis of the deposited data

How the results depend on the processing

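Of the 28 members called, 20 kept their call under all 9 alternatives, 4 of them higher and 16 lower with lactic acid, and of the 26 not called 22 were never called. Calls were lost under at least 1 alternative for Med8, Med11, Med19, Med21, Med30, Taf4, Taf7 and Taf15, of which the DESeq2 Wald test lost all but Taf4, and Med21 was also lost with no filter (edgeR adjusted p = 0.0704). For all called genes, the share that kept their call under all 9 alternatives was not computed. The 20 of 28 therefore describes the members only. Over all 13922 genes tested, the DESeq2 Wald test also called fewer, 4745 beside 6822 in the fit reported. Of these 4745 genes 2251 were higher and 2494 lower. With the replicate block, a paired fit by replicate number, 6852 genes were called, beside 6822 without it, and no call of a member changed. The labels do not say that same-numbered libraries were paired, and their deviations from the group mean correlated at 0.00383. With only 2 pairs this value cannot show whether the cultures were paired. The count of Mediator genes called higher was 3 with the DESeq2 Wald test, 3 without the members with shared exons or copies, an alternative chosen after seeing the data, and 3 to 5 when a library was left out. The Mediator median log2 change was −0.109 with DESeq2 size factors, −0.109 with the DESeq2 Wald test, −0.129 with no filter, −0.0863 with a mean of at least 5 CPM, −0.174 without members with shared exons or copies, and −0.114 to −0.104 when a library was left out. The TAF median was −0.135 with no filter, −0.0896 with a mean of at least 5 CPM, −0.241 without members with shared exons or copies, and −0.139 to −0.116 when a library was left out. Their difference was 0.0668 without such members and 0.00200 to 0.0350 when a library was left out. Signs turned for 11 members, none of them called in the fit where the sign turned or in the one reported. With a mean of at least 5 CPM these were Med26 (0.00278) and Med4 (0.00174). With a library left out they were Med20 (−0.0407 to 0.101), Med26 (−0.0891 to 0.0593), Med4 (−0.0456 to 0.00829), Med15 (−0.0749 to 0.0370), Taf1a (−0.255 to 0.0374), Taf8 (−0.0675 to 0.0160), Taf9 (−0.353 to 0.278), Taf9b (−0.626 to 0.0524), Taf10 (−0.0424 to 0.107), Taf11 (−0.0921 to 0.00964), Tbp (−0.122 to 0.0710) and the log2 ratio of Taf5l to Taf5 (−0.0648 to 0.0714). The cause was not tested. Depth limits the members with few counts, so that Taf7, with 43 to 92 counts a library, had an SE of 0.24, and Taf9 and Taf9b, which were not called, had SEs of 0.63 and 0.31.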

Other observations

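Mediator and TAF genes within 500 kb of each other formed 4 pairs. Med17 and Taf1d, 26.3 kb apart on chromosome 9, were both lower with lactic acid, as were Med12 and Taf1, 235 kb apart on chromosome X. Taf12 and Med18, 163 kb apart on chromosome 4, had log2 differences of −0.46, which was called, and 0.19, which was not. Taf8 and Med20, 109 kb apart on chromosome 17, were not called.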
